A study of Homo sapiens with 9 samples.

Results

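The accessible sites of human chromosome 18 were the 3588 peaks placed on that chromosome in 4 ATAC-seq peak lists, out of 194414 peaks in all. Chromosome 18 was chosen from its share of peaks, which was higher in each of the 3 knockout lists than in the control list, so that share and every peak position compared below are given as description without a test. The lists come from HEK293T, an established human embryonic kidney line. Each knockout of IGF2BP1, IGF2BP2 or IGF2BP3 was 1 clone grown from a sorted cell after transient transfection with a plasmid that did not integrate and carried 3 guide RNAs against the gene, and the control received a guide without a mammalian target. No cells had any other treatment. The labels name 9 libraries, of which 2 belong to the control, 3 to the IGF2BP1 knockout, 2 to the IGF2BP2 knockout and 2 to the IGF2BP3 knockout. The labels place the libraries in batches 2 and 3 for every group, and 1 library of batch 1 is present for the IGF2BP1 knockout only, and its part in that list was not tested. A single list stands for each group, so spread between libraries was not measured, and genotype and clone cannot be told apart. Where 3 knockout values stand together, they are those of IGF2BP1, then IGF2BP2, then IGF2BP3.

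ATAC-seq marks DNA that the transposase Tn5 can reach, which in most cells means active promoters, enhancers and boundary elements. Chromosome 18 is known as one of the gene-poor human chromosomes, which tend to lie at the edge of the nucleus, and its long arm carries the desmosomal cadherin cluster, the SMAD2, SMAD4 and SMAD7 genes of TGF-beta signalling, BCL2 and a cluster of serpin genes. The IGF2BP proteins bind RNA and are known for stabilising messenger RNAs.

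Before the counts, some promoters at which the lists differed are shown, picked after their values were seen, as the 250 bases upstream of an annotated start (RefSeq, GRCh38.p14), read in the direction of the gene. The first set holds 4 genes with a peak over the start in all 3 knockout lists and none in the control. Capitals on either strand mark the TATA box core TATAAA, the Sp1-type GC box GGGCGG, the NF-Y box CCAAT, the bHLH E-box CACGTG or the AP-1 site TGACTCA, and overlapping copies of a motif were each counted.
COLEC12, chr18:500702-500951, minus strand: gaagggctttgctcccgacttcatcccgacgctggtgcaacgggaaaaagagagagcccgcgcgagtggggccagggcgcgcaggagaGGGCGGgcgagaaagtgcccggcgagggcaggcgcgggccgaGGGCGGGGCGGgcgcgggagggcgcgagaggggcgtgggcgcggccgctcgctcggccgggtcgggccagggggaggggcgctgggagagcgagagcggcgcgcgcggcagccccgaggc
CBLN2, chr18:72544343-72544592, minus strand: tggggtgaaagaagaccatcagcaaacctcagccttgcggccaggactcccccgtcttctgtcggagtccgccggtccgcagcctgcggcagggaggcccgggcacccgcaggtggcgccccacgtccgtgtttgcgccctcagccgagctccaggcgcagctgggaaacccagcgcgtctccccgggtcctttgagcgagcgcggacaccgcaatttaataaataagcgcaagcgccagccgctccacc
CD226, chr18:69956800-69957049, minus strand: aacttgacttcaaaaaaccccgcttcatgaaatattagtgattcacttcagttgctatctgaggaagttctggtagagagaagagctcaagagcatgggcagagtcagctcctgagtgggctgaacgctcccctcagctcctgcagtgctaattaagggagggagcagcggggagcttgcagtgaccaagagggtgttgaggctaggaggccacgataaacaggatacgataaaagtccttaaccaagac
RPL17, chr18:49492466-49492715, minus strand: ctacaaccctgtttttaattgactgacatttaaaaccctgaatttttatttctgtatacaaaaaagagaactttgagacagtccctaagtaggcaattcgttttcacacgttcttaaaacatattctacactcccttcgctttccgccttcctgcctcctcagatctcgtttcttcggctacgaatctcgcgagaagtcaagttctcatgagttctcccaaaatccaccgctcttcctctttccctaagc

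The second set holds the promoter with a peak in the control list alone, NFATC1, and a pair with a peak in every list but that of the IGF2BP2 knockout, SOCS6 and PTGR3.
NFATC1, chr18:79395680-79395929, plus strand: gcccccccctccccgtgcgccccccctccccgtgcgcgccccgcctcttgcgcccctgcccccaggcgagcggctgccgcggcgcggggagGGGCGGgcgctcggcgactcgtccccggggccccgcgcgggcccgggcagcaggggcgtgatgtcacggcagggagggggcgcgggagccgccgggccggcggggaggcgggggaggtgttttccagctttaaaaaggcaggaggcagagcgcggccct
SOCS6, chr18:70288795-70289044, plus strand: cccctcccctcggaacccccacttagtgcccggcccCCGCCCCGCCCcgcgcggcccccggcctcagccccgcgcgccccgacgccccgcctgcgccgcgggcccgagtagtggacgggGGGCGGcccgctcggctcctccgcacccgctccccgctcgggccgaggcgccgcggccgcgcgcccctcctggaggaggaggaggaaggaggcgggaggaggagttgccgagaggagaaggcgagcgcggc
PTGR3, chr18:75209140-75209389, minus strand: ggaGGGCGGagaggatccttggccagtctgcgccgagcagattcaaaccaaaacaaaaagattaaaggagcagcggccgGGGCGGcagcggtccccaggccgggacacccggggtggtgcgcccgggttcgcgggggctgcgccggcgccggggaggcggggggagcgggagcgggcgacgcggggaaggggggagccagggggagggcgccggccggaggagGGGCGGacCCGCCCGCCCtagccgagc

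COLEC12 held 3 copies of GGGCGG, NFATC1 held 1, SOCS6 held 3 and PTGR3 held 5. The CBLN2, CD226 and RPL17 stretches held none of the 5 motifs, which says only that these letters are not in this window. Among 35116 promoters of the same length in the reference table, 42.6% held GGGCGG, 32% CCAAT, 10.7% TATAAA, 6.34% CACGTG and 4.2% TGACTCA. The stretches differed in base composition, from 41.6% G and C with 10 CpG in RPL17 and 49.6% with 5 CpG in CD226 to 78.4% with 38 CpG in COLEC12 and 82% with 38 CpG in SOCS6.

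The control list held 587 peaks on chromosome 18, 1.50% of its 39194 peaks. The IGF2BP1 knockout list held 963 of 50917 (1.89%), the IGF2BP2 knockout list 1182 of 60262 (1.96%) and the IGF2BP3 knockout list 856 of 44041 (1.94%). The knockout lists were longer than the control list on the whole genome as well, by 1.3, 1.54 and 1.12 times, and on chromosome 18 they were longer by 1.64, 2.01 and 1.46 times. How deeply each group was sequenced is unknown here, and whether depth or the peak caller's threshold had a part in these counts was not tested. Chromosome 18 peaks covered 496 kb in the control and 865, 840 and 666 kb in the knockouts. Their median width was 775 bp in the control and 812, 614 and 670 bp in the knockouts. On the other chromosomes the medians were 771 bp in the control and 834, 652 and 714 bp in the knockouts, so in width chromosome 18 followed its list.

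Most of the added peaks lay away from gene starts. Of the chromosome's 1107 genes, 553 have an annotated start, and for the others either end of the gene was taken as a start. Counts and distances at gene starts, here and below, can therefore include gene ends. Within 1 kb of a gene start, the control list held 227 peaks on chromosome 18 and the knockout lists 270, 275 and 252. Farther away, it held 360 peaks and the knockout lists 693, 907 and 604. Taken over peaks at gene starts alone, the chromosome's share was 1.11, 1.09 and 1.07 times that of the control, and over the other peaks it was 1.32, 1.38 and 1.42 times. The share of chromosome 18 peaks at gene starts was 38.7% in the control (Wilson 95% interval 34.8 to 42.7) and 28%, 23.3% and 29.4% in the knockouts. On the other chromosomes it was 40.9% in the control and 33.8%, 29.7% and 37.7% in the knockouts. These and all later intervals cover counting error over peaks or regions only. Peaks at gene starts were wide in every list (medians 1104, 1159, 975 and 1071 bp), and the others were narrower (614, 727, 562 and 576 bp).

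The arms were divided at the longest stretch without an annotated gene, 15330264 to 20946905, which spans 5.62 Mb and holds the centromere. On the short arm, the control list held 131 peaks and the knockout lists 185, 196 and 142. As shares of their lists, these were 1.09, 0.973 and 0.965 times the control share, so the short arm stood close to the control. On the long arm, the control list held 453 peaks and the knockout lists 776, 981 and 712, or 1.32, 1.41 and 1.4 times the control share. The gene-free stretch itself held 3, 2, 5 and 2 peaks. The difference in share was thus carried by the long arm, which has 3.37 coding genes per Mb against 4.57 on the short arm.

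In windows of 5 Mb, the log2 ratio of a knockout's share to the control's share (0.5 peaks added to each count) was highest from 40 to 45 Mb. That window held 7 control peaks and 29, 41 and 18 knockout peaks, with log2 ratios of 1.60, 1.85 and 1.13. It has 4 coding genes, the lowest number among windows with at least 10 peaks on average. Next came 30 to 35 Mb, with 66 control peaks and 152, 206 and 156 knockout peaks (log2 ratios 0.82, 1.01 and 1.07). This window carries the DSC and DSG desmosomal cadherins, GAREM1, CCDC178, ASXL3, NOL4 and DTNA, and held more peaks than any other window of the chromosome in each of the 4 lists. The third, from 65 to 70 Mb, rested on 5 control peaks and 10, 13 and 11 knockout peaks.

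The lowest windows were 80 to 85 Mb, the last partial window, with 5 control peaks and 5, 7 and 5 knockout peaks, 15 to 20 Mb, with 1 control peak and 1, 2 and 1 knockout peaks, and 5 to 10 Mb. The last held 48 control peaks and 63, 67 and 46 knockout peaks, and its log2 ratios of 0.01, -0.14 and -0.23 make it the lowest window with enough peaks to read. Of 14 windows with at least 10 peaks on average, 10 (71.4%, 95% interval over windows 45.35 to 88.28) were above the control in all 3 knockouts. Over all 588 such windows it was 28.6%. Since chromosome 18 was picked for its share, this count follows in part from the choice. Among the 58 highest of the 588 windows, 5 were on chromosome 18, and they adjoin each other from 20 to 45 Mb. Chromosome 13 had 9 windows among the same 58.

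**Figure D1:**
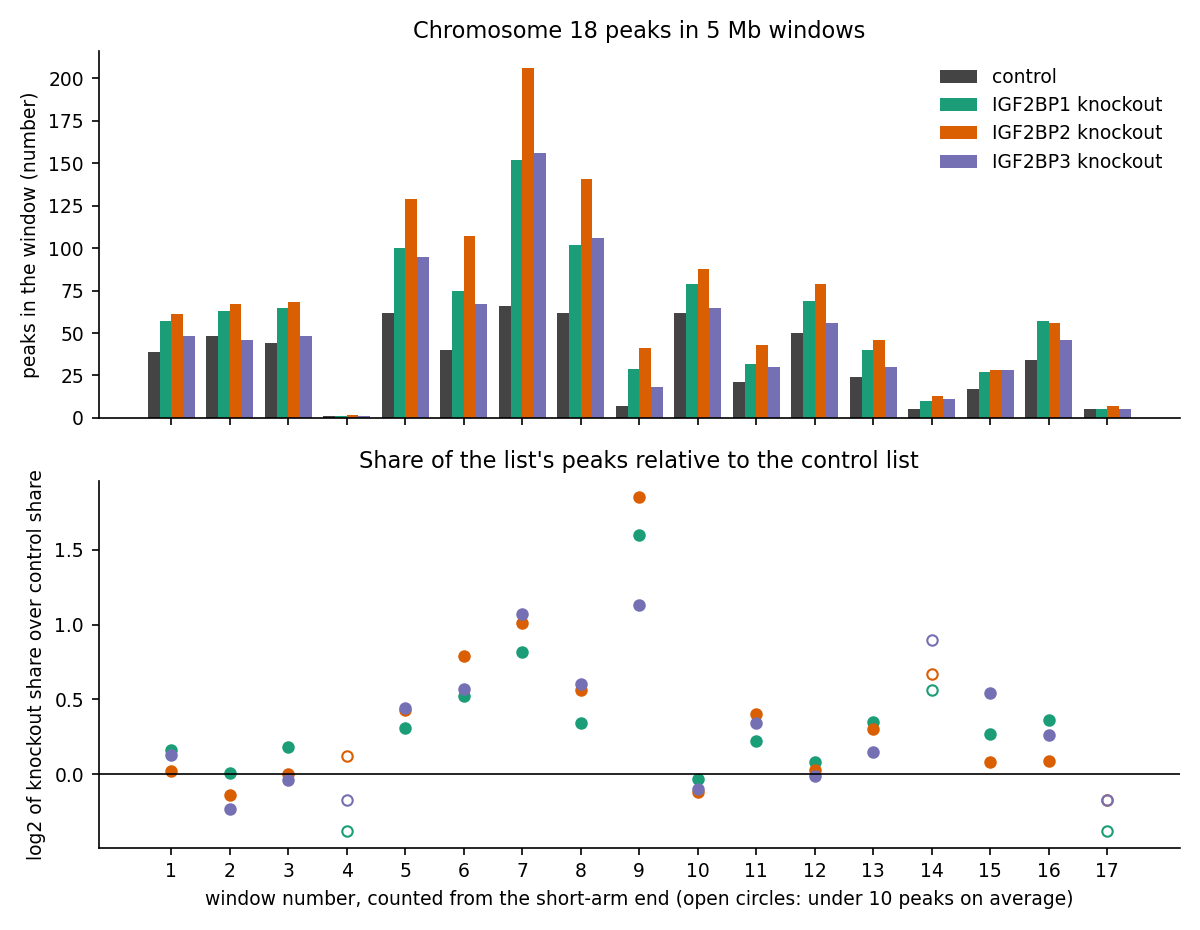
Top, number of chromosome 18 peaks in each 5 Mb window (bars, 1 per list). Bottom, log2 ratio of window shares, knockout to control, in the same windows (open circles, fewer than 10 peaks on average). The windows numbered 5 to 9, from 20 to 45 Mb, are above 0 in all 3 knockouts, with the highest value of 1.85 in window 9 and the highest count of 206 in window 7.

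The stretch from 20 to 45 Mb, with bounds set from the window values themselves, contained 237 control peaks and 458, 624 and 442 knockout peaks, or 1.49, 1.71 and 1.66 times the control share. The rest of the chromosome held 350 control peaks and 505, 558 and 414 knockout peaks, or 1.11, 1.04 and 1.05 times. Within the stretch, peaks at gene starts numbered 75 in the control and 88, 92 and 81 in the knockouts, and as a share of all gene-start peaks of their list they were 1.09, 1.1 and 1.05 times the control. Peaks farther than 1 kb from a gene start numbered 162 in the control and 370, 532 and 361 in the knockouts, or 1.57, 1.8 and 1.88 times. The stretch therefore differed from the control at sites between and inside genes, and hardly at gene starts.

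Peak by peak, 429 of the 963 chromosome 18 peaks of the IGF2BP1 knockout (44.5%) shared no base with a control peak, against 31.2% over the whole list. In the IGF2BP2 knockout, it was 647 of 1182 (54.7%) against 40.2%, and in the IGF2BP3 knockout 347 of 856 (40.5%) against 27.2%. Peaks without a control counterpart were narrower, with medians of 683, 521 and 540 bp, than those with one, with medians of 980, 815 and 848 bp. In the opposite direction, 48 of the 587 control peaks (8.18%) had no counterpart in the IGF2BP1 knockout, against 10.1% of all control peaks. For the IGF2BP2 knockout it was 56 (9.54%) against 8.8%, and for the IGF2BP3 knockout 79 (13.5%) against 18.5%. Set beside the whole lists, chromosome 18 stood higher for knockout peaks in all 3 comparisons and for control peaks in 1 of 3.

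Merging overlapping peaks of the 4 lists gave 1420 regions on chromosome 18 out of 71597. All 4 lists held 461 of them (32.5%, 95% interval 30.1 to 34.9), against 41.5% of all regions. All 3 knockout lists and not the control held 161 (11.3%, 9.79 to 13.1), against 6.88% of all regions. The control alone held 12 (0.845%, 0.484 to 1.47), against 1.98%. The 3 comparisons share the 1 control list, which is also the shortest, so a site missed in it is set against the control in all 3 and can enter the class of the 3 knockouts without the control. The IGF2BP2 knockout alone, the longest list, held 259 regions (18.2%, against 15.2% on the other chromosomes), and the IGF2BP1 and IGF2BP2 knockouts together held 145 (10.2% against 7.87%). Regions missing from the IGF2BP3 knockout alone were fewer than elsewhere, at 37 (2.61% against 5.21%).

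**Figure D2:**
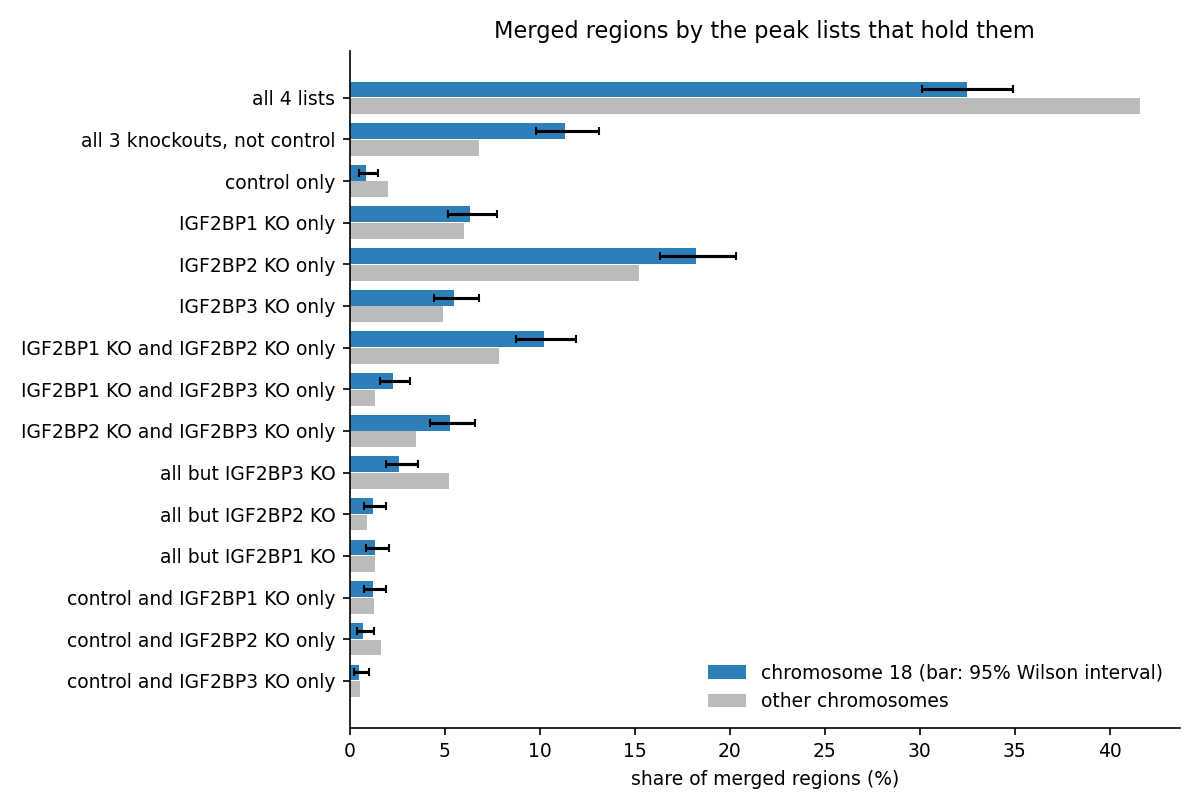
Share of merged regions held by each combination of lists, for chromosome 18 (blue, with 95% Wilson intervals over regions) and the other chromosomes (grey); KO stands for knockout. Regions in all 3 knockouts and not the control make up 11.3% on chromosome 18, and regions in all 4 lists 32.5%.

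By the share of such sites, chromosome 18 ranked 2 of 23 after chromosome 13, with 13.2%. The same pair has the lowest densities of coding genes, 2.96 per Mb on chromosome 13 and 3.36 per Mb on chromosome 18. Position relative to genes was therefore set beside the share. Of 304 chromosome 18 regions within 1 kb of a gene start, 17 were held by all 3 knockouts and not the control (5.59%, 3.52 to 8.77), against 3.26% on the other chromosomes. Of 1116 farther away, 144 were (12.9%, 11.1 to 15), against 8.1%. Inside coding genes the values were 9.88% (7.92 to 12.3) against 5.43%, and up to 100 kb outside them 13.8% (10.7 to 17.4) against 7.88%. Over 100 kb from a coding gene, the interval for chromosome 18 took in the value elsewhere, with 11.6% (8.39 to 15.9) against 9.45%. Chromosome 18 stood above the other chromosomes in each of the 5 positions, with the smallest gap in the gene deserts. The positions are not separate comparisons, since the same regions were divided once by gene start and again by coding gene. No test was made, since the chromosome was chosen on this contrast, and the part of gene density in the share was not tested further.

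**Figure D3:**
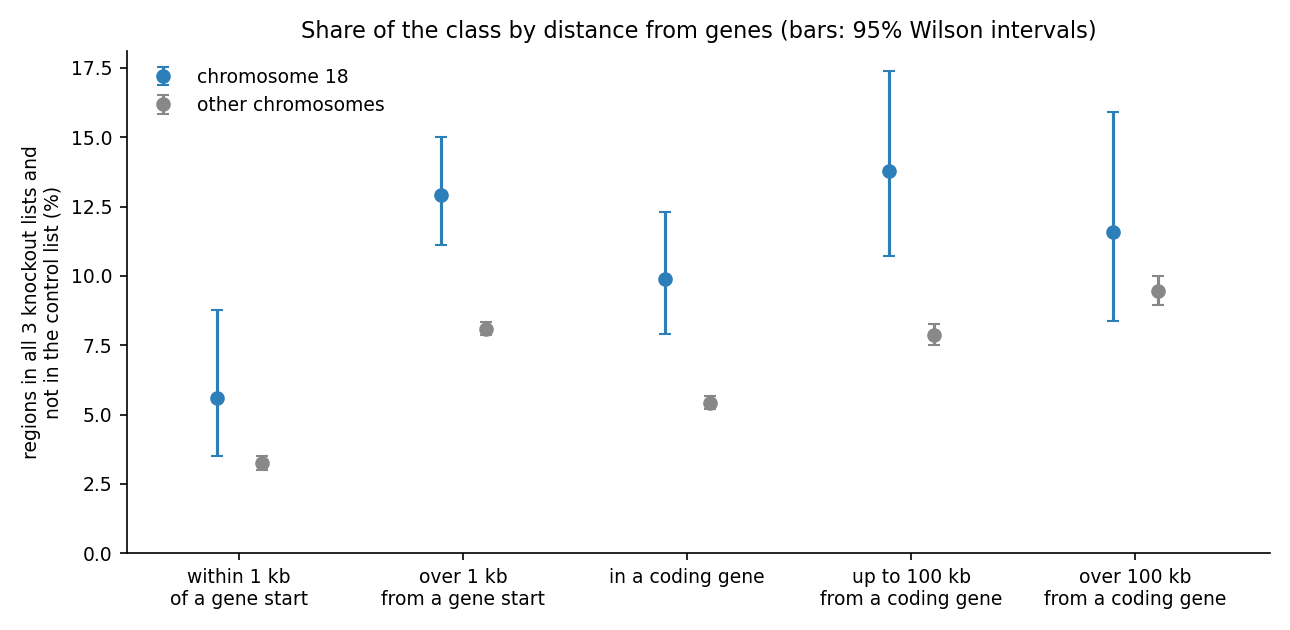
Share of merged regions held by all 3 knockout lists and not the control list (vertical axis, %), by position relative to genes, for chromosome 18 (blue) and the other chromosomes (grey); bars are 95% Wilson intervals over regions. Chromosome 18 stands higher at each position, from 5.59% at gene starts to 13.8% up to 100 kb from a coding gene.

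The 161 sites were spread unevenly. The long arm held 146 of its 1177 regions in this class (12.4%) and the short arm 14 of 237 (5.91%), which is near the 6.88% of all regions. The stretch from 20 to 45 Mb held 112 of the 161 (69.6%), or 15.2% of its own 737 regions, against 7.17% of 683 regions outside it. Its bounds were set from the window ratios of these same lists, so this contrast follows in part from the choice. The window from 30 to 35 Mb alone held 49 of its 246 regions (19.9%). At 159 of the 161 sites the nearest control peak was at least 1 kb away, and over all 161 the median distance was 30.7 kb. The other 2 were at GAREM1, 352 bp from a control peak, and at ZNF236, 618 bp away. By definition no site overlaps a control peak, and no such distance for other regions is given for comparison. Coding genes overlapped 72 sites, 89 lay outside, and 33 (20.5%) lay more than 100 kb from any coding gene, against 6.72% of the regions in all 4 lists. Of all 1420 regions of the chromosome, 284 lay that far from a coding gene, a share close to that of these sites. Within 1 kb of a gene start there were 17 sites (10.6%, 6.7 to 16.3), against 45.3% (40.8 to 49.9) of regions in all 4 lists. Of all 1420 regions of the chromosome, 304 lay there. In regions of 1 knockout list alone the share was 13.3%, 5.79% and 7.69%, so a low share was not particular to these sites.

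These sites were moderately narrow. Their summed width had a median of 742 bp (274 to 1977) for IGF2BP1, 631 bp (274 to 1274) for IGF2BP2 and 577 bp (244 to 1431) for IGF2BP3. In regions of all 4 lists the medians were 1012, 890 and 887 bp. With each list shortened to its 39194 widest peaks, the class held 83 of 1100 regions (7.55%, against 3.94% of all regions).

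**Figure D4:**
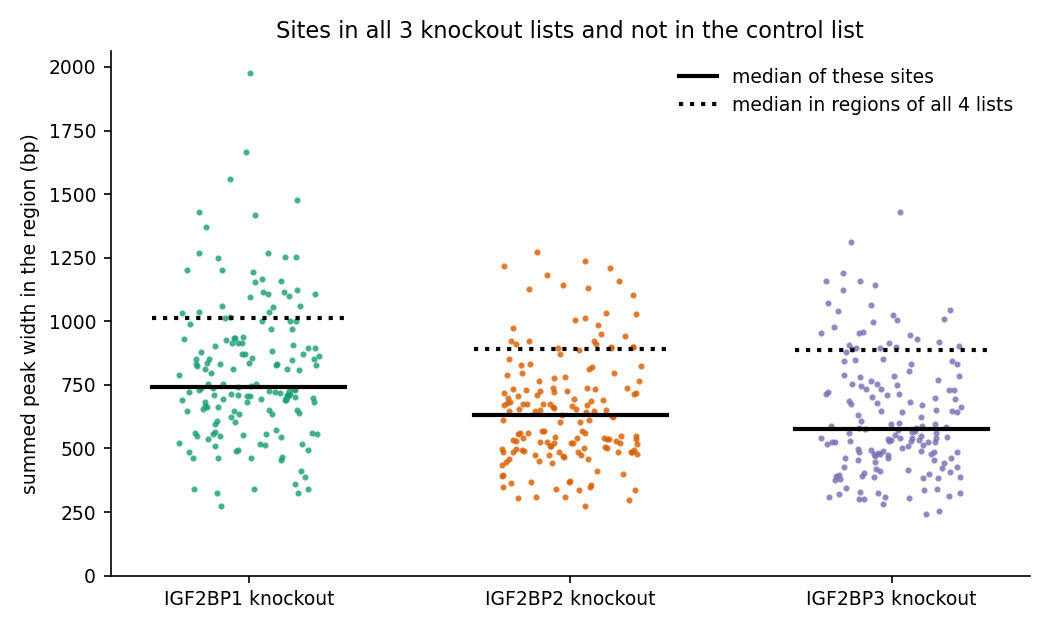
Summed peak width (bp) in each of the 161 sites held by all 3 knockout lists and not the control list, 1 point per site and list; solid lines are their medians (742, 631 and 577 bp) and dotted lines the medians of regions in all 4 lists (1012, 890 and 887 bp). Points are spread sideways at random for visibility.

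Ranked by the smallest of their 3 widths, the leading sites were mostly intronic or intergenic by gene span, since exons were not resolved. The first, chr18:22492762-22494245, was 1417, 1274 and 1313 bp wide in the knockouts, and lay 74.8 kb from CTAGE1 and 40.6 kb from the nearest control peak. The second, chr18:40867135-40868694, measured 1560, 1218 and 1431 bp and lay in a desert, 1087 kb from PIK3C3, the catalytic subunit of the class III phosphatidylinositol kinase. The third, chr18:31931181-31932608, measured 1428, 1007 and 1141 bp inside TRAPPC8, a subunit of a vesicle tethering complex. Since the ranking is by width, the leading sites are wide by choice. The first stood at width percentiles 88.2, 90.8 and 88.8 of the knockout lists, and the tenth at 58.1, 73.7 and 69.

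The fourth was the start of COLEC12 and is described with the promoters. The fifth, 55779487 to 55780742, covered the start of the long non-coding RNA gene LINC01415, 144 kb from TCF4, a basic helix-loop-helix transcription factor. The sixth, 32382483 to 32383779, lay in GAREM1, an adaptor of growth factor receptor signalling. The seventh, 27482716 to 27484062, lay 297 kb from CHST9, a sulfotransferase, and the eighth, 33282164 to 33283204, inside CCDC178, a coiled-coil protein gene. The ninth, 35458110 to 35459311, lay 9.02 kb from INO80C, a subunit of the INO80 chromatin remodeller. The tenth, 33676094 to 33677053, lay inside ASXL3, a partner of the BAP1 deubiquitinase. In this group of 10, the distance to the nearest control peak ran from 5.79 kb at ASXL3 to 435 kb at the PIK3C3 desert.

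Inside coding genes, CCDC178 held 9 of the sites over its 504 kb. It carried 5 control peaks and 17, 22 and 16 knockout peaks. GAREM1 held 7 over 207 kb, at 3.38 per 100 kb the densest of the 8 genes with the most sites, and carried 3 control peaks and 12, 13 and 11 knockout peaks. DTNA, which encodes the dystrophin-associated protein alpha-dystrobrevin, held 5 and carried 11 control peaks and 16, 20 and 18 knockout peaks. The average over the chromosome was 0.201 per 100 kb. CCDC178, GAREM1 and DTNA all lie in the window from 30 to 35 Mb.

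COLEC12, GREB1L, ASXL3, FHOD3 and CELF4 held 3 sites each. GREB1L, a gene needed for kidney development, carried 4 control peaks and 7, 10 and 7 knockout peaks. FHOD3, a formin that assembles actin in heart muscle, carried 8 and then 17, 20 and 17. CELF4, a neuronal RNA-binding protein, carried 11 and then 16, 16 and 16, with 11 of its regions in all 4 lists. The 8 genes are long, from 173 to 504 kb. They were picked for holding these sites, so their lower control counts follow from the choice.

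**Figure D5:**
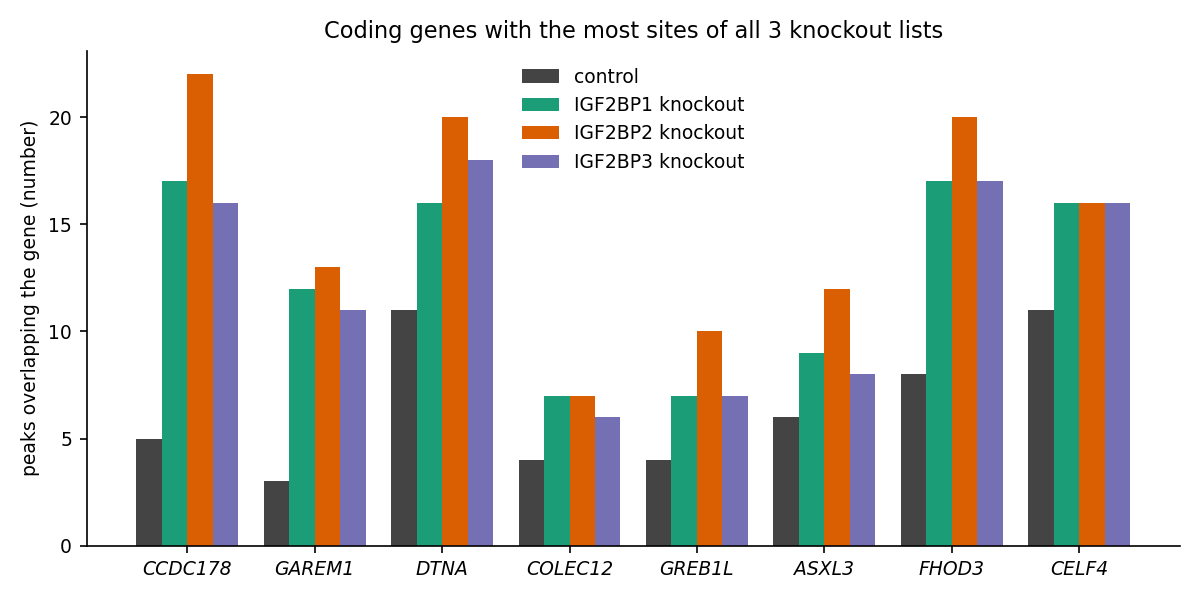
Number of peaks overlapping each of the 8 coding genes with the most sites held by all 3 knockout lists and not the control list (vertical axis), 1 bar per list. The genes were picked for holding such sites, so the control bar is the lowest in each by that choice, with 3 peaks against 11 to 13 at GAREM1 and 11 against 16 at CELF4.

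By definition the sites lie between control peaks, and 3 such gaps with several sites are described here, chosen for that number. The control had no peak from 32334265 to 32470253, 136 kb inside GAREM1, where the knockouts had 9, 8 and 8 peaks forming 8 regions, 6 of them in all 3 knockouts. In CCDC178, 143 kb without a control peak (33232622 to 33375630) held 4 such sites among 7 regions. The gap of 1972 kb from 28178523 to 30150526 contains no coding gene and lies next to CDH2, the N-cadherin gene. It held 31 regions, with 8, 29 and 17 knockout peaks, and 4 sites in all 3. In that desert the IGF2BP2 knockout list was the fullest, unlike in the GAREM1 gap, where the 3 lists were nearly even.

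Regions in the control list alone were few and small. The widest at least 1 kb from any knockout peak, 79395810 to 79396590 (781 bp), covers the start of NFATC1, a transcription factor controlled by calcium and calcineurin. The others were at 49607937 to 49608563 (627 bp), 8.75 kb from the endothelial lipase gene LIPG, at 34529782 to 34530212 (431 bp) in DTNA, at 22563024 to 22563429 (406 bp), 145 kb from CTAGE1, and at 7022327 to 7022731 (405 bp) in LAMA1, a laminin chain. The last 3 stood at width percentiles 8.23 to 10 of the control list and 2.61 to 15.5 kb from the nearest knockout peak.

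Regions in all 4 lists included the widest sites of the chromosome. The first was 107166 to 110756 at the pseudogene ROCK1P1, with summed widths of 2899 bp in the control and 2899, 3350 and 2650 bp in the knockouts. It was split into 1, 1, 2 and 4 peaks. At the FHOD3 start (36296511 to 36298679), the widths were 2169, 2152, 2138 and 2091 bp, and at the start of the desmosomal cadherin DSC3 (31041074 to 31043177) they were 2024, 2091, 2100 and 2081 bp. Over the 461 regions in all 4 lists, the median log2 change in summed width was 0.19 (95% interval of the median over regions, 0.17 to 0.22), 0.04 (0.02 to 0.07) and 0.02 (-0.00 to 0.04). On the other chromosomes the medians were 0.12, -0.01 and -0.03. From 20 to 45 Mb they were 0.25, 0.08 and 0.05 over 194 regions, and in the rest of the chromosome 0.17, 0.02 and -0.00 over 267 regions. The shared regions of the stretch were thus slightly wider in each knockout, by less than the change in peak numbers, and whether the 2 are connected was not tested.

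Gene starts were examined for the 270 coding genes of the chromosome, of which 234 have at least 1 start in the promoter table; for the other 36, whose strand is not given, either end of the gene was taken. A gene can have several starts, and a peak within 1 kb of any of them was counted. In the control list 188 genes (69.6%, 63.9 to 74.8) had such a peak, and in the knockout lists 203, 192 and 198 genes did. Over all 20037 coding genes the shares were 66.6% in the control and 68.7%, 68.2% and 67.5% in the knockouts. All 4 lists had one at 177 genes (65.6%, against 64.2% of all coding genes) and none at 59 (21.9%, against 29%). The lists differed at 34 genes (12.6%, 9.15 to 17.1), against 6.75% of all coding genes. Relative to the control, the knockouts gained 16, 15 and 13 genes and lacked 1, 11 and 3. Over all coding genes they gained 552, 582 and 451 and lacked 137, 263 and 278.

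A start peak in all 3 knockouts and not the control was found at 7 genes (2.59%, 1.26 to 5.25), against 1.1% of all coding genes. Shortening each list to its 39194 widest peaks left 1 such gene, and leaving out peaks under 500 bp left 2. COLEC12, a scavenger receptor with a collagen-like stem and a lectin head, had peaks of 1270, 984 and 997 bp over its start, and the nearest control peak lay 43.2 kb away. They covered all 250 upstream bases printed above. CBLN2, a secreted organiser of synapses, had peaks of 548, 475 and 583 bp over its start, with the nearest control peak 1496 kb away. Its promoter was covered over all 250 bases as well. CD226, an activating receptor of natural killer and T cells, had peaks of 1036, 523 and 488 bp over the second of its starts, with the nearest control peak 117 kb away.

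RPL17, a protein of the large ribosomal subunit, had small peaks of 461, 411 and 429 bp over its start, at width percentiles 6.28, 14.5 and 13.8 of their lists. The control list had its nearest peak, 1219 bp wide, 4.44 kb away. RPL17-C18orf32, a read-through gene, shares that start and counts as a separate gene in the 7. ZNF236, a zinc finger protein, had peaks of 666, 567 and 387 bp that ended 69, 280 and 326 bp from its start, and the control had a peak of 722 bp 1465 bp from the start. LOXHD1, needed in hair cells of the inner ear, entered on the distance limit alone. Its peaks of 548, 620 and 610 bp lay 916, 881 and 854 bp from the start, and the overlapping control peak of 469 bp lay 1009 bp from it. Leaving LOXHD1 and the shared start aside, 5 starts gained a peak in all 3 knockouts. At ZNF236 the control peak of 722 bp stood 618 bp from the knockout site, and no knockout list held it.

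The opposite pattern, a start peak in the control and no knockout, was found at 1 gene (0.37%, 0.0654 to 2.07), against 0.279% of all coding genes. This was NFATC1, where the control peak of 781 bp covered the start and 120 of the 250 upstream bases. Each knockout list had a peak on the upstream side, of 919, 946 and 825 bp, at 1218, 1190 and 1253 bp from the start. The control list held a peak of 900 bp at that upstream site too. No knockout peak lay within 1 kb of either start of NFATC1.

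A start peak in all lists but the IGF2BP2 knockout was seen at 8 genes (2.96%, 1.51 to 5.74; 0.689% of all coding genes), although that list is the longest. SOCS6, a suppressor of cytokine signalling, had peaks of 830, 1099 and 970 bp over its start in the control, IGF2BP1 knockout and IGF2BP3 knockout, and in the IGF2BP2 knockout the nearest peak was 338 bp wide and 2.3 kb away. PTGR3, a prostaglandin reductase, had peaks of 1069, 1742 and 1526 bp, and in the IGF2BP2 knockout the nearest was 9.4 kb away. LDLRAD4, which dampens TGF-beta signalling, had peaks of 982, 1821 and 1425 bp over its first start, against a peak of 351 bp 1.17 kb away in the IGF2BP2 knockout. The other 5 were ADCYAP1, AKAIN1, L3MBTL4, ZBTB7C and DIPK1C. At ADCYAP1, the gene of the neuropeptide PACAP, the difference rests on the distance limit, since the IGF2BP2 knockout peak lay 1.24 kb from the start and the others 0.914 to 0.954 kb. These 8 genes, singled out after their values were seen, include wide promoter peaks, and those of PTGR3 stood at width percentiles 74.4, 95.6 and 94.1 where present.

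Of the 161 sites, 8 lay within 1 kb of a coding gene's start, at COLEC12, GAREM1, DTNA, RPL17, ST8SIA3, CD226, CBLN2 and ZNF236. At GAREM1 and DTNA the control had another peak near a start, and at ST8SIA3, a sialyltransferase gene, the IGF2BP2 knockout peak fell beyond 1 kb. The other 9 sites lay at non-coding genes and pseudogenes, most of them without an annotated start. LINC01415 has one, whereas for DSG2-AS1, LINC01910, PPIAP14 and RPLP0P12 either end of the gene was taken. Promoters of coding genes with a start peak in all 4 lists had a median of 66% G and C and 21 CpG over 243 annotated starts. The 33 starts of genes with a peak in 1 to 3 knockouts and not the control had 52.8% and 7 CpG, between those and the 59 starts of genes with no peak in any list (44.4% and 3 CpG). All annotated starts of a gene were taken, also those without a peak nearby. At the first start of SLC14A2, for example, the nearest peak of any list lay 44.5 kb away.

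Gene families of the chromosome were examined by lists chosen from general knowledge. For every list of coding genes below, the share to set beside its differing members is 12.6%, that of all coding genes of the chromosome. Of 30 housekeeping genes, 29 had a start peak in all 4 lists and 1, RPL17, differed. Of 7 desmosomal cadherin genes, DSC2, DSC3 and DSG2 had a start peak in all 4 lists, DSG1, DSG3 and DSG4 in none, and DSC1 in the IGF2BP1 and IGF2BP3 knockouts. Inside these 7 genes lay 2 of the 161 sites, 1 in DSC1 and 1 in DSG2. Per 100 kb of gene this was 0.686, from 2 sites alone, against 0.246 over all 270 coding genes. These genes lie in the window from 30 to 35 Mb, which held 49 of the 161 sites, more than any other window. Whether the family differed from that window was not tested. In other lists the density was 0.282 for other cadherins, 0.226 for laminins, 0.225 for neural genes and 0.17 for transcription factors and chromatin proteins. It was 0.136 for TGF-beta signalling, 0.111 for apoptosis and immunity, 0.097 for housekeeping genes and 0 for serpins. Of 4 other cadherins, CDH2 had a peak in all lists and CDH19 in none, while CDH7 had one in the IGF2BP2 knockout alone and CDH20 in the IGF2BP3 knockout alone. Of 10 clade B serpins, protease inhibitors of the long arm, SERPINB8 and SERPINB10 had a peak in all 4 lists and the other 8 in none, so this cluster did not differ at its starts.

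Of 6 genes of TGF-beta signalling, SMAD2, SMAD4, SMAD7 and TGIF1 had a start peak in all 4 lists, SKOR2 in none, and LDLRAD4 in all but the IGF2BP2 knockout. Of 27 genes listed as transcription factors and chromatin proteins, 19 had a peak in all 4 lists and SALL3 had none. The other 7 differed, beside 12.6% of all coding genes of the chromosome. Among these 7, ZNF236 gained one in all 3 knockouts, and TSHZ1, SETBP1 and ZNF516 gained one in the IGF2BP1, IGF2BP3 and IGF2BP2 knockout in turn. At TSHZ1 this rests on the distance limit, since the peak over the PTGR3 start lay 0.734 kb from the nearer end of TSHZ1 in the IGF2BP1 knockout, against 1.01 kb in both the control and the IGF2BP3 knockout. ZBTB7C lacked it in the IGF2BP2 knockout, ZNF532 in the IGF2BP2 and IGF2BP3 knockouts, and NFATC1 in all 3. The list also holds KDSR, an enzyme of sphingolipid synthesis that does not belong to it by function.

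Of 19 neural genes, 9 had a start peak in all 4 lists, 7 in none and 3 differed, beside 12.6% of all coding genes of the chromosome. CBLN2 gained one in all 3 knockouts, DCC, the netrin receptor, in the IGF2BP1 knockout, and MC4R, a melanocortin receptor, in the IGF2BP2 knockout. Inside the 19 genes lay 12 of the 161 sites, with 5 in DTNA and 3 in CELF4, which span 399 and 323 kb. Per 100 kb of gene this was 0.225 sites, against 0.246 over all 270 coding genes. Of 11 genes of apoptosis, NF-kappaB and immunity, 6 had a peak in all 4 lists. CD226, SOCS6 and NFATC1 differed as given above, beside the same 12.6% of coding genes. Of the 2 laminin chains, LAMA1 had a start peak in all 4 lists, and LAMA3 lacked it in the IGF2BP2 and IGF2BP3 knockouts. Of 35 miRNA genes, 2 had a peak within 1 kb in all 4 lists (MIR4741 and MIR1539), 30 in none and 3 differed, and the muscle miRNA genes MIR133A1 and MIR1-2 and the liver miRNA gene MIR122 were among the 30.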

How the data were processed

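Peak lists of 4 groups (9 ATAC-seq libraries of 100000 HEK293T cells per reaction, per the labels' protocols) were used. Per the submitters' processing notes, fastp 0.24.1, BWA 0.7.17, MACS2 3.0.0, bedtools and the build GRCh38 were named. The threshold of the caller, the handling of the Tn5 offset and the way libraries were joined into 1 list are not given in the sources used here. The authors deposited 3 columns per list (chromosome, start, end), with no score, so the other measure of a peak is its width; the read depth is unknown. Coordinates are counted from 1.

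Gene spans, starts and sequences came from RefSeq tables of GRCh38.p14. Peaks of different lists were matched by 1 bp in common and merged into regions, each classed by the lists that held it. Windows of 5 Mb took peaks by their midpoint. A gene start was reached by a peak within 1 kb. For genes of any type without an annotated start, either end of the gene was taken instead. Proportions carry Wilson 95% intervals (Python 3.11.15, numpy 2.4.6, scipy 1.17.1, matplotlib 3.10.9). Scripts were tested on simulated data. No p-values were computed, because each group has 1 list and the chromosome was chosen by its share. The members and the gene lists were chosen with earlier results of these data known. Named were the windows with the 3 highest and 3 lowest mean ratios, up to 10 sites of all 3 knockouts and 5 of the control alone (at least 1 kb from peaks of the lists that lack them, by width), the 3 gaps between control peaks with the most sites, the 3 widest shared regions, genes with differing starts and up to 8 genes with the most sites. Alternatives were the 39194 widest peaks of each list, peaks of at least 500 bp, merging of peaks closer than 500 bp, 50% overlap, gene-start peaks alone, windows of 2 Mb and a gene distance of 5 kb. Peak sequences were not used here, since they need a genome.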

Additional observations from a re-analysis of the deposited data

How the results depend on the processing

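No paired analysis was possible because each list pools the libraries of its group, and for the same reason leaving out a library could not be run. Over 20 results, 84 alternative values were computed, of which 65 stayed within the interval of the reported value (or, for counts, within the factor allowed), 17 moved outside it and 2 reversed. With gene-start peaks alone, the chromosome's share fell from 1.263, 1.31 and 1.298 times the control to 1.109, 1.088 and 1.074 (IGF2BP1, IGF2BP2, IGF2BP3), and that of the long arm from 1.319, 1.408 and 1.399 to 1.125, 1.105 and 1.097. The short arm reversed in the IGF2BP2 knockout (0.9731 to 1.043) and the IGF2BP3 knockout (0.9647 to 1.015); the cause was not tested. With the widest peaks of each list, 36.63% and 40.03% of IGF2BP1 and IGF2BP2 knockout peaks lacked a control counterpart (23.8% and 26.6% over the whole lists), 83 regions (7.545%, against 3.94% of all) were in all 3 knockouts and not the control, and 1 coding gene gained a start peak in all 3. With peaks of at least 500 bp, 47.69% and 35.71% of IGF2BP2 and IGF2BP3 knockout peaks lacked a counterpart (34.2% and 23.9% over the whole lists), 95 regions (8.668%, against 5.44%) were in the class and 2 coding genes gained a start peak. These 2 settings test fewer peaks by construction. With a gene distance of 5 kb, 20.5% of the class was near a gene start. Depth per library is unknown, so sites near the caller's threshold could not be told from sites absent.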

Other observations

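A start peak in 1 knockout list alone was found at 3 coding genes for each of the 3 knockouts, against 112, 155 and 117 of 20037 coding genes in all. In the IGF2BP1 knockout alone, a start peak was present at DCC, at PIEZO2, a mechanically gated ion channel, and, by the distance limit, at TSHZ1, a zinc finger protein, whose control peak lay 1.01 kb away. In the IGF2BP2 knockout alone, it was present at MC4R, CDH7 and ZNF516, and in the IGF2BP3 knockout alone at SETBP1, CDH20 and HMSD. The PIEZO2 peak was 526 bp wide over the start. The adjoining urea transporter genes SLC14A1 and SLC14A2 both had a start peak in the IGF2BP1 and IGF2BP2 knockouts and in neither other list. Those of SLC14A1 were 360 and 323 bp wide and lay 996 and 997 bp from the start, at the distance limit.

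Sites held by 1 knockout also lay far from starts. The 259 regions of the IGF2BP2 knockout alone stood at a median of 22.8 kb from a gene start, 15 of them (5.79%, 3.54 to 9.33) within 1 kb, with a median width of 467 bp. The 90 regions of the IGF2BP1 knockout alone stood at 18.5 kb, with 12 (13.3%, 7.79 to 21.9) within 1 kb. The 78 of the IGF2BP3 knockout alone stood at 16.7 kb, with 6 (7.69%, 3.57 to 15.8) within 1 kb. No test of these differences was made.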
